A study of Rattus norvegicus with 68 samples.

Results

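Anxa1, Cebpd, Tsc22d3, Fkbp5, Per1 and Sgk1 are genes that glucocorticoid hormones induce in many cell types, and their transcripts were followed in the blood of rats given acetaminophen (APAP). All 6 genes were on the array, with 10 of its 22075 probes, among 9653 genes that could be named. They were chosen by name with their values known, and those values are the log2 ratios of treated rat over vehicle in all 9 groups, so the ratios of these genes are given as a description with no test. The blood came from male rats of the F344/N strain, aged 10 to 12 weeks. APAP was gavaged at 150, 1500 or 2500 mg/kg, each dose split into portions, with 0.5% ethyl cellulose as the vehicle, and the rats were killed at 6, 12 or 24 h. There were 4 rats in a group, save for 3 in the 150 mg/kg and 1500 mg/kg groups killed at 12 h, and these small numbers limit precision. The 34 rats gave 68 arrays, since the dyes were swapped for each rat, and the other channel held RNA of rats of the same strain, sex and time given the vehicle alone. In the design text this control RNA is pooled from 4 animals (6 and 12 h) or 6 animals (24 h), but the labels name 1 rat for it at both earlier times.

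Glucocorticoids from the adrenal gland enter cells and bind the glucocorticoid receptor, which waits in the cytosol on Hsp90 chaperones, moves into the nucleus and turns genes on or off there. In blood the hormones are known for raising the number of circulating neutrophils and lowering that of lymphocytes. Anxa1 is a phospholipid-binding protein, abundant in neutrophils, that limits their recruitment. Cebpd and Tsc22d3 are regulators of transcription, the first of the acute-phase and myeloid response and the other a partner that holds inflammatory transcription factors in check. Fkbp5 is a co-chaperone that lowers the affinity of the receptor for its hormone and so forms a feedback loop. Per1 is a repressor of the circadian clock, and Sgk1 is a kinase that acts on ion channels and on FOXO factors.

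The promoters of the genes differ in their core sequence, and those of 4 of them are shown because each stands for one of the patterns described below. The sequences are from RefSeq, build GRCr8, run from 250 bases before to 50 after an annotated start, and are written 5′ to 3′ on the gene's strand, which is the minus strand for all 4. Capitals mark every match on either strand to the TATA box TATAAA or the CCAAT box CCAAT. The window of Anxa1 is chr1:227303683-227303982, that of Tsc22d3 chrX:109009985-109010284 (1 of its 3 annotated starts), that of Fkbp5 chr20:6543506-6543805 and that of Sgk1 chr1:24804782-24805081 (1 of 3).
Anxa1: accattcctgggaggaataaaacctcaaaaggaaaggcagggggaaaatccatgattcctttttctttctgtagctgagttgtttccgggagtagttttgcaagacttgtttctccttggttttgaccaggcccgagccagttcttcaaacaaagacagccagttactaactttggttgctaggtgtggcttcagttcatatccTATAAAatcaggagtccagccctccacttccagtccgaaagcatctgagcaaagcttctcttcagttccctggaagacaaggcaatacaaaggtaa
Tsc22d3: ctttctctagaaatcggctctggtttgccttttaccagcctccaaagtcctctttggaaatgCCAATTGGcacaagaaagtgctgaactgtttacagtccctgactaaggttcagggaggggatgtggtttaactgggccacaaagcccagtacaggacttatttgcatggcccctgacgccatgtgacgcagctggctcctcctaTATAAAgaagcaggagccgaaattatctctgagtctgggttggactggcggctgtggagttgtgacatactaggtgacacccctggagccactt
Fkbp5: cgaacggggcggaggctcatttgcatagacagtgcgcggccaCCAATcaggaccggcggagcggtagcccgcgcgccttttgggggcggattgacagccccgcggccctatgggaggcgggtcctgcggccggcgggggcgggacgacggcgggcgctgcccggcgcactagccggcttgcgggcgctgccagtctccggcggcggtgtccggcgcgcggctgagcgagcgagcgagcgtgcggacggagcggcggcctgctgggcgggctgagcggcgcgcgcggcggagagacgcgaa
Sgk1: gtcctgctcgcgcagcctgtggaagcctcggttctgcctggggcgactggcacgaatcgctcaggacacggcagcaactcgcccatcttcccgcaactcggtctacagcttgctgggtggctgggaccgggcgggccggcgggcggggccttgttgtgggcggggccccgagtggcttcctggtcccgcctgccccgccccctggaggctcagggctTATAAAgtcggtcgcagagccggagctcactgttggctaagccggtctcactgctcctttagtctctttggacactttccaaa
In the windows shown, Anxa1, Tsc22d3 and Sgk1 hold TATAAA from 46, 44 and 33 bases before the start. The windows of the other starts of Tsc22d3 hold none. Of the other Sgk1 windows, chr1:24805521-24805820 holds none and chr1:24807182-24807481 holds it. Fkbp5 holds no TATAAA and has CCAAT in a window of 77% G and C, against 45% in Anxa1. In Tsc22d3 the capitals CCAATTGG are 2 CCAAT boxes on opposite strands that overlap. Of all 33469 promoters in the table, 14.2% hold TATAAA and 37.5% hold CCAAT, and 4 and 2 of the 9 promoters listed for these genes do. Of the 9, Sgk1 and Tsc22d3 have 3 each and Anxa1, Fkbp5 and Per1 1 each, and none is listed for Cebpd. The palindrome of the glucocorticoid response element, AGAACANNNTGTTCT, occurred in 0 of the 9 (0.0149% of all promoters), and its single arm AGAACA in 0 of the 9 (20.7% of all). A match is a description of these letters, and the lack of one says only that they are not in this window.

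A value below is the log2 of treated rat over vehicle, the mean of the 2 arrays of a rat, and errors are SDs over rats unless a standard error is named. The deposited values are ratios with no signal of their own, so whether a probe was above background or saturated is not shown, and markers of blood cells cannot be checked for their level. The direction of the ratio was taken as Cy5 over Cy3, which is likely but not stated, and the opposite one would turn every sign. One control RNA served each time, and its own spread lies outside every comparison with it. Comparisons between doses at 1 time do not contain it. Blood is a mixture, in which a change in the number of cells of a type and a change of RNA per cell cannot be told apart.

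One array stood apart. The array with rat 3631 (2500 mg/kg, 24 h) in Cy5 correlated with the mean of the other arrays at 0.28 over probes, where the next lowest stood at 0.74. On that array Anxa1 was at -0.85 and Cebpd at -1.80, against 2.80 and 1.40 on the other array of the same rat. Means and calls of that group are therefore in part also given without it. The correlations over rats and the marker means below all keep it. None of the 680 array values of the 10 probes was exactly 0 or at the scale limit.

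Anxa1 was the gene with the highest ratios of the 6, and they came late and at the high doses. At 24 h the 150 mg/kg rats stood at -0.09, 0.08, -0.18 and -0.19, the 1500 mg/kg rats at 1.86, 0.49, 2.88 and 2.16, and the 2500 mg/kg rats at 2.79, 2.07, 2.35 and 0.97. All 8 rats of both high doses lay above all 4 rats of the low dose, and the high doses overlapped each other. The means were -0.09 ± 0.13, 1.85 ± 1.0 and 2.05 ± 0.77 (SD, n = 4 rats each), or 0.937-fold, 3.59-fold and 4.13-fold of vehicle. The lowest rat after 2500 mg/kg was 3631, and without its deviating array the mean was 2.50 ± 0.36 (without the rat, 2.40 ± 0.36 with n = 3). Against the 150 mg/kg rats of the same time, the difference was 2.14 after 2500 mg/kg and 1.94 after 1500 mg/kg, or 4.41-fold and 3.84-fold.

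The order of doses was another one earlier. At 12 h Anxa1 stood at -0.05, -0.17 and -0.21 after 150 mg/kg, at 0.48, 1.59 and 0.96 after 1500 mg/kg, and at 0.83, 0.95, 0.02 and 0.43 after 2500 mg/kg. Both high doses lay above the low one in every rat, with means of -0.14 ± 0.08 (n = 3), 1.01 ± 0.56 (n = 3) and 0.55 ± 0.42 (n = 4), and overlapped each other. At 6 h the values were -0.28, -0.19, -0.25 and -0.13 after 150 mg/kg, 0.07, 0.20, 0.50 and 0.22 in the 1500 mg/kg rats, and -0.06, 0.07, -0.37 and -0.32 after 2500 mg/kg. The 1500 mg/kg rats were the highest group at that time, with a mean of 0.25 ± 0.18 against -0.17 ± 0.21 after 2500 mg/kg, and the 2500 mg/kg rats overlapped the low dose. Thus the mean after 1500 mg/kg stood at 1.19-fold, 2.01-fold and 3.59-fold of vehicle at 6, 12 and 24 h. After 2500 mg/kg it stood at 0.889-fold, 1.47-fold and 4.13-fold.

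Cebpd had its highest mean at each time after 1500 mg/kg, and unlike Anxa1 it was well below vehicle after the low dose at 6 and 12 h. After 150 mg/kg it was below vehicle in all 7 rats of the earlier times, at -0.87, -0.54, -0.76 and -0.59 at 6 h and at -0.69, -0.83 and -0.54 at 12 h. The 1500 mg/kg rats were above vehicle throughout, at 0.12, 0.36, 0.49 and 0.29 at 6 h, 0.77, 1.68 and 0.72 at 12 h, and 0.64, 0.45, 1.75 and 1.99 at 24 h. The low dose and the 1500 mg/kg dose did not overlap at any time. Their difference, which the control does not enter, was 1.01 at 6 h, 1.75 at 12 h and 1.32 at 24 h in favour of 1500 mg/kg, or 2.01-fold, 3.35-fold and 2.49-fold. At 24 h the low dose was close to vehicle, at 0.28, -0.42, -0.19 and -0.11.

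The 2500 mg/kg rats were less uniform for Cebpd. At 6 h they stood at 0.15, -0.01, -1.09 and -0.78, so that 2 rats lay beside vehicle and 2 in or below the range of the 150 mg/kg group. At 12 h they stood at 0.73, 1.03, -0.05 and 0.27, all above the low dose. At 24 h they stood at 1.55, 0.55, 0.68 and -0.20, a mean of 0.65 ± 0.72 that overlapped the low dose through rat 3631 alone. Without the deviating array of that rat the mean was 1.05 ± 0.50, and without the rat 0.93 ± 0.54 (n = 3), values which lie nearer to the 1.21 ± 0.78 after 1500 mg/kg.

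**Figure D1:**
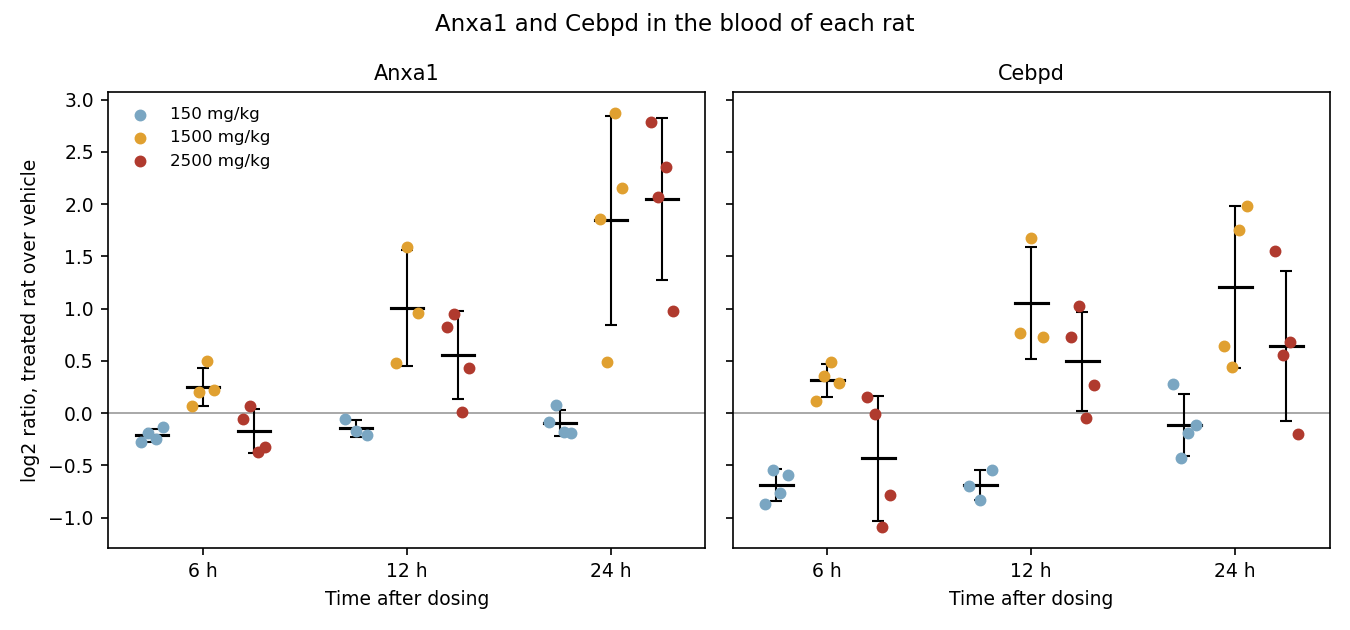
Log2 ratio of treated rat over vehicle for Anxa1 and Cebpd (vertical axis) by time and dose (horizontal axis, with doses from low to high within a time). Points are rats, bars the mean and whiskers the SD over rats, and Anxa1 at 24 h reached means of 1.85 after 1500 mg/kg and 2.05 after 2500 mg/kg while Cebpd lay below vehicle after 150 mg/kg at 6 and 12 h.

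Markers of neutrophils moved with both genes. The mean log2 ratio of 12 measured neutrophil markers (of 22 listed) was -0.15 after 150 mg/kg, 1.23 after 1500 mg/kg and 1.07 after 2500 mg/kg at 24 h, with rats between -0.32 and 0.06, 0.77 and 1.65, and 0.64 and 1.41. Over the 34 rats the mean of the markers and Anxa1 had r = 0.95 (rho = 0.93), and r = 0.93 without the 2 rats farthest from the median of the markers. Cebpd had r = 0.84 (rho = 0.85) and 0.80 without the 2 farthest. Within the high doses r for Anxa1 was 0.93 (1500 mg/kg, 11 rats) and 0.99 (2500 mg/kg, 12 rats), and within the 150 mg/kg rats 0.04 (11 rats). For Cebpd the values were 0.78, 0.80 and -0.19 in the same order. These are descriptions over rats that share a control at each time, and the part of neutrophils in the ratios of Anxa1 and Cebpd was not tested.

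Monocyte markers moved with Cebpd nearly as closely. Over the 34 rats their mean had r = 0.77 with Cebpd and 0.65 with Anxa1. The T cell markers had r = -0.30 with Cebpd and -0.34 with Anxa1, and the erythroid markers -0.54 and -0.77. At 24 h after 2500 mg/kg, 7 of 12 neutrophil markers passed as higher and 1 as lower (limma adjusted p under 0.05), against 11 of 17 T cell markers and 5 of 6 B cell markers that passed as lower and 0 as higher. In that comparison 10.9% of all genes passed as higher and 15.6% as lower. The erythroid list had 2 of 14 higher and 7 lower, the platelet list 0 of 7 higher and 5 lower. The monocyte list was split, with 3 of 13 higher and 2 lower. Its mean log2 ratio at 24 h was 0.01, 0.16 and 0.01 after 150, 1500 and 2500 mg/kg. Without the deviating array of rat 3631, 7 of the 8 neutrophil calls, 10 of the 11 T cell calls, 3 of the 5 B cell calls and 7 of the 9 erythroid calls remained. The erythroid calls lost were the 2 higher ones, Alas2 and Ank1 (limma adjusted p = 0.202 and 0.175). The neutrophil call lost was the lower one, Fcnb (limma adjusted p = 0.127). Of the monocyte calls 4 remained and 1 did not, and the 5 platelet calls remained.

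**Figure D2:**
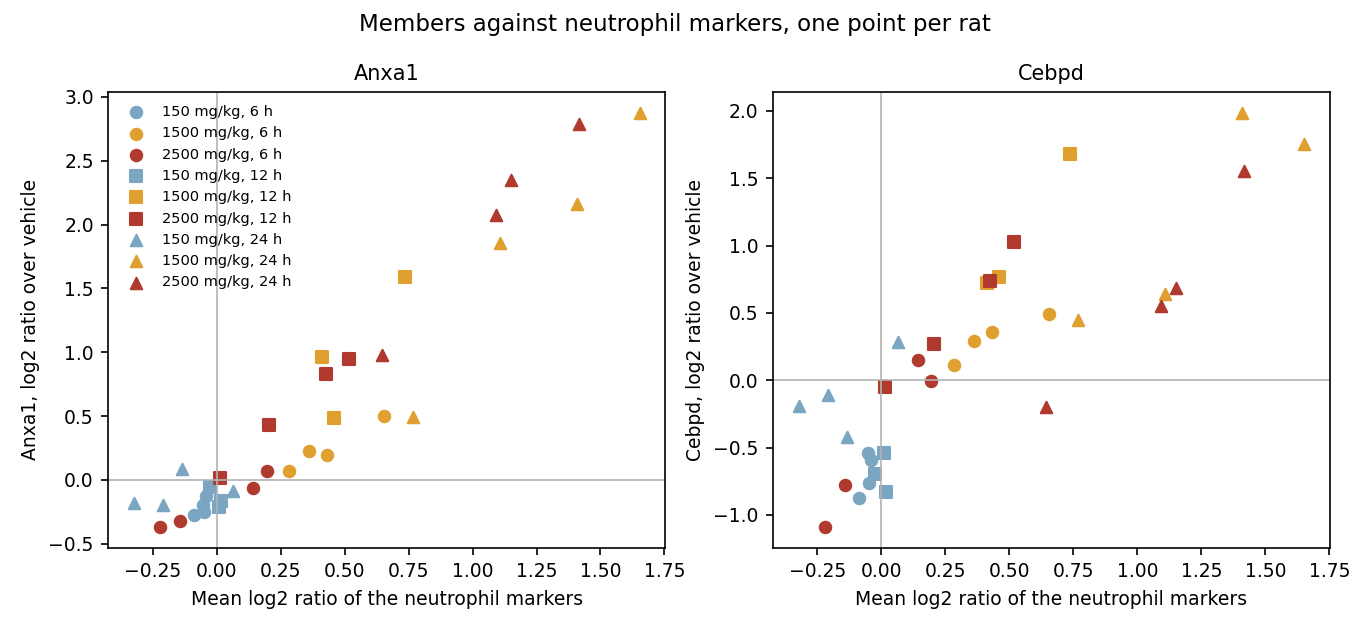
Log2 ratio of Anxa1 and of Cebpd over vehicle (vertical axes) against the mean log2 ratio of 12 neutrophil markers (horizontal axis), with 1 point per rat, colour for dose and shape for time. The 34 rats lay along a rising band for Anxa1 (r = 0.95) and a wider one for Cebpd (r = 0.84), and the 11 rats given 150 mg/kg formed a cluster near or below 0 without such a band.

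Tsc22d3, known as the glucocorticoid-induced leucine zipper, had 2 probes that did not read alike. Probe 3186 had a group mean between -0.02 and 0.19 in all 9 groups. Its Cy5 and Cy3 arrays had the same sign after turning in only 1 of 34 rats, and the mean dye effect of -0.53 exceeded every group mean in size. Probe 6684 had the same sign on both arrays in 24 of 34 rats and ranged from -1.19 to 0.96 over rats, and the values that follow are its own.

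By probe 6684, Tsc22d3 was below vehicle in most groups. At 24 h the 150 mg/kg rats stood at -0.05, -0.38, -0.27 and 0.62, the 1500 mg/kg rats at -1.17, -0.95, -0.07 and 0.07, and the 2500 mg/kg rats at -0.50, -0.90, -1.19 and -1.12. Every 2500 mg/kg rat lay below every 150 mg/kg rat, while the 1500 mg/kg rats spanned both. Without the deviating array rat 3631 stood at -0.32, above the lowest 150 mg/kg rat, and the separation ended. The 2500 mg/kg mean of -0.93 ± 0.31 (n = 4), or 0.526-fold, became -0.73 ± 0.39 without the deviating array of rat 3631. Anxa1 in the same 4 rats was above vehicle, so these 2 genes that glucocorticoids induce stood on opposite sides of the vehicle control in each of them.

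At 6 h Tsc22d3 was below vehicle on average at every dose but split within the highest one. The values were -0.83, -0.12, -0.77 and -0.61 after 150 mg/kg, -1.05, -0.82, -0.81 and -0.84 in the 1500 mg/kg rats, and 0.19, 0.83, -1.12 and -0.68 after 2500 mg/kg. Rats 3595 and 3596 of the highest dose lay above vehicle, and rats 3597 and 3598 lay near the 1500 mg/kg rats. At 12 h the values were -0.68, -0.74 and -0.18 after 150 mg/kg, -0.22, 0.96 and 0.06 in the 1500 mg/kg rats, and 0.03, 0.05, -0.01 and -0.30 after 2500 mg/kg. Rat 4133 alone lifted the 1500 mg/kg mean to 0.27 ± 0.62, and it was also the highest rat of its group for Anxa1 and Cebpd.

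Fkbp5 by probe 18781 had the highest means of the 6 genes after both high doses at 6 h. Probe 18781 stood at 0.77, 0.78, 0.64 and 0.28 after 1500 mg/kg at 6 h and at 1.60, 2.07, 0.39 and 0.69 after 2500 mg/kg, where the 150 mg/kg rats of that time stood at -0.10, -0.06, 0.11 and -0.19. Every rat of both high doses was above every rat of the low dose. The means were -0.06 ± 0.13, 0.62 ± 0.23 and 1.19 ± 0.78 (n = 4 each), and against the low dose the difference was 1.24 after 2500 mg/kg and 0.67 after 1500 mg/kg, or 2.36-fold and 1.59-fold. Rats 3595 and 3596, the highest for Tsc22d3 after 2500 mg/kg, were also the highest for Fkbp5 and had the higher Cebpd and Anxa1 values of their group. Their T cell marker means were higher too (-0.15 and -0.16, against -0.66 and -0.45 in rats 3597 and 3598). So were those of monocytes (-0.27 and -0.31 against -0.51 and -0.60) and neutrophils (0.14 and 0.20 against -0.22 and -0.14). Erythroid markers split likewise, platelet markers went the other way and B cell markers did not separate the pairs. The part of the cell mixture in this split was not tested.

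By probe 18781 the high doses stayed above the low dose at 12 h and not at 24 h. At 12 h probe 18781 stood at -0.21, -0.52 and -0.34 after 150 mg/kg, 0.04, 0.73 and 0.12 in the 1500 mg/kg rats, and 0.62, 0.59, -0.16 and -0.03 after 2500 mg/kg. The high doses still lay above the low one without overlap, by 0.66 for 1500 mg/kg and 0.61 for 2500 mg/kg, and their means were nearer to vehicle than at 6 h. At 24 h the group means were -0.15 ± 0.17, -0.17 ± 0.65 and -0.15 ± 0.26 from the low dose to the high, and the 3 doses overlapped. Anxa1 had its highest means at that time.

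The other probes of Fkbp5 moved in a narrower range. Probe 8499 had means between -0.10 and 0.37 over the 9 groups and probe 19576 between 0.04 and 0.31, against -0.36 to 1.19 for probe 18781. At 6 h after 2500 mg/kg all 4 rats were above vehicle by all 3 probes, with means of 1.19 ± 0.78 (probe 18781), 0.26 ± 0.15 (probe 8499) and 0.31 ± 0.10 (probe 19576). By probe 19576 the 150 mg/kg rats were also above vehicle, at 0.21 ± 0.05, and the doses overlapped. By probe 8499 the 2500 mg/kg and 150 mg/kg rats overlapped as well. At 24 h after 2500 mg/kg these probes were about as high as at 6 h, at 0.23 ± 0.12 (probe 8499) and 0.29 ± 0.25 (probe 19576). By probe 8499 all 4 rats were then above the 150 mg/kg rats, but without the deviating array rat 3631 stood at -0.04, inside the range of the low dose. The size of the ratio at 6 h therefore rests on 1 of 3 probes. Both arrays of a rat had the same sign in 22 of 34 rats for probe 18781, in 23 for probe 8499 and in 18 for probe 19576. Mean dye effects were 0.06, 0.02 and -0.10 in the same order.

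**Figure D3:**
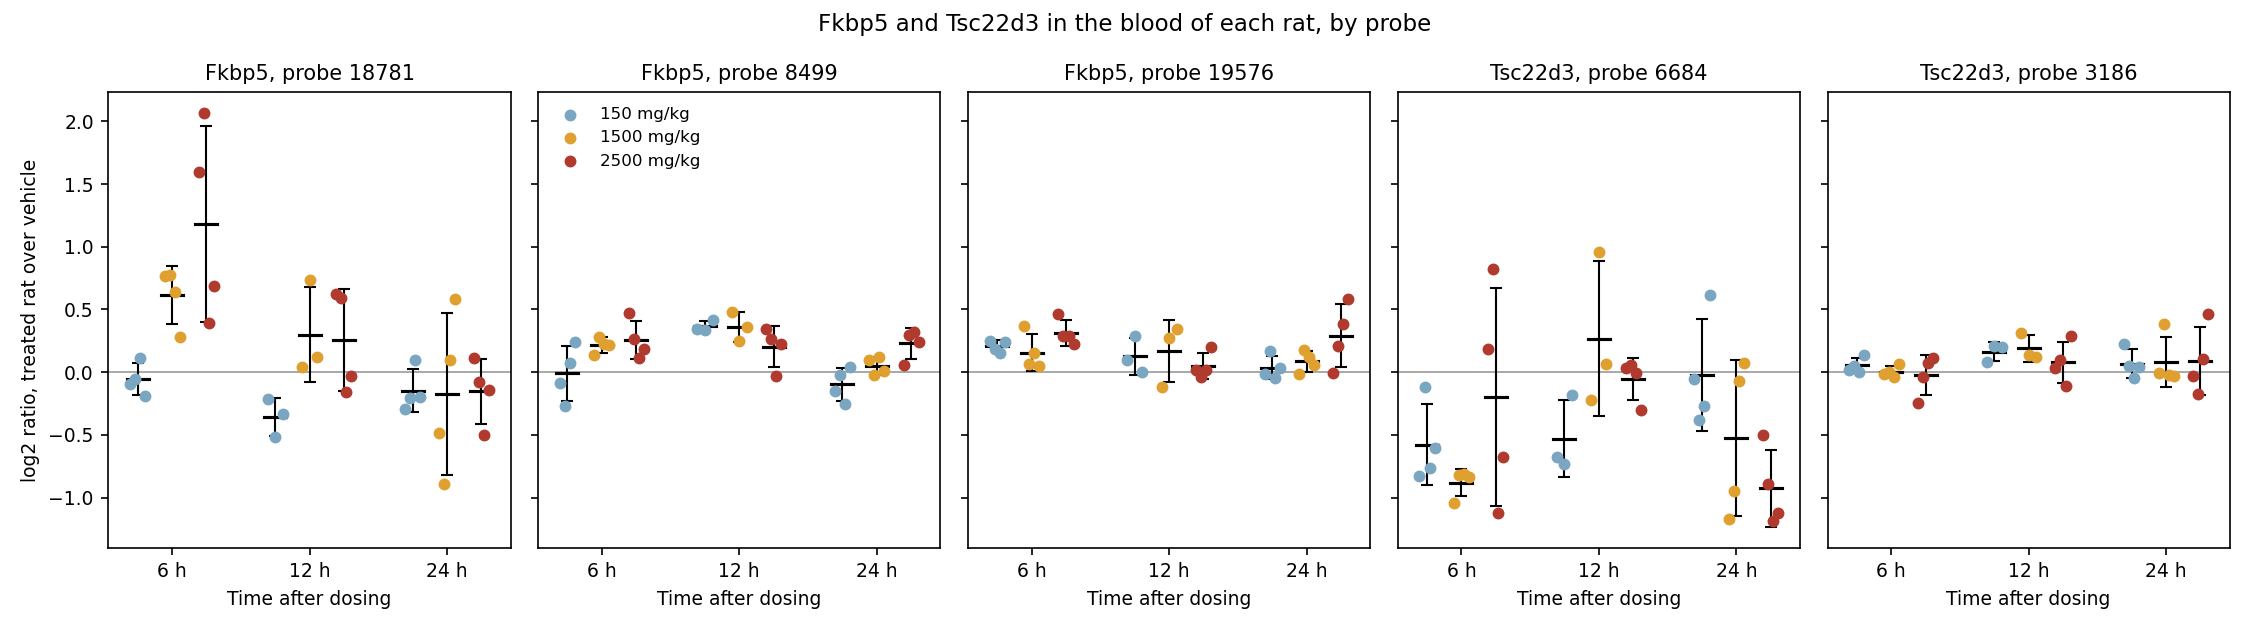
Log2 ratio of treated rat over vehicle (vertical axis) by time and dose (horizontal axis, doses from low to high within a time) for the 3 probes of Fkbp5 and the 2 of Tsc22d3. Points are rats, bars the mean and whiskers the SD over rats. Probe 18781 of Fkbp5 was highest at 6 h after 2500 mg/kg (mean 1.19), and probe 6684 of Tsc22d3 was lowest at 24 h after that dose (mean -0.93).

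Per1 stayed near vehicle at every dose and time. Its probe 1350 had group means between -0.05 and 0.12 and its probe 7828 between -0.12 and 0.06. After 2500 mg/kg at 24 h the 2 probes had means on opposite sides of vehicle, 0.12 ± 0.12 by probe 1350 and -0.11 ± 0.02 by probe 7828 (n = 4 rats), and over all rats they had r = -0.42. By probe 7828 the 2500 mg/kg rats at 24 h, at -0.08, -0.11, -0.13 and -0.12, lay just below the 150 mg/kg rats at -0.06, 0.05, -0.05 and -0.02. The 2 arrays of a rat had the same sign in 15 of 34 rats for probe 1350 and in 11 of 34 for probe 7828. The mean dye effect was -0.06 for the first probe and 0.11 for the second, as large as most of the group means.

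Sgk1 had its highest means at 24 h, and after the high doses they were lower than those of Anxa1. Its values there were 0.10, 0.05, 0.04 and -0.00 after 150 mg/kg, 0.05, 0.25, 0.49 and 0.68 in the 1500 mg/kg rats, and 0.27, 0.26, 0.01 and 0.34 after 2500 mg/kg. The means of 0.05 ± 0.04, 0.36 ± 0.27 and 0.22 ± 0.15 correspond to 1.03-fold, 1.29-fold and 1.17-fold, and each high dose overlapped the low one. Group means at 6 h and 12 h lay between -0.13 and 0.03. The 2 arrays of a rat had the same sign in 11 of 34 rats. The mean dye effect of 0.17 exceeded every group mean in size save those of the high doses at 24 h.

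**Figure D4:**
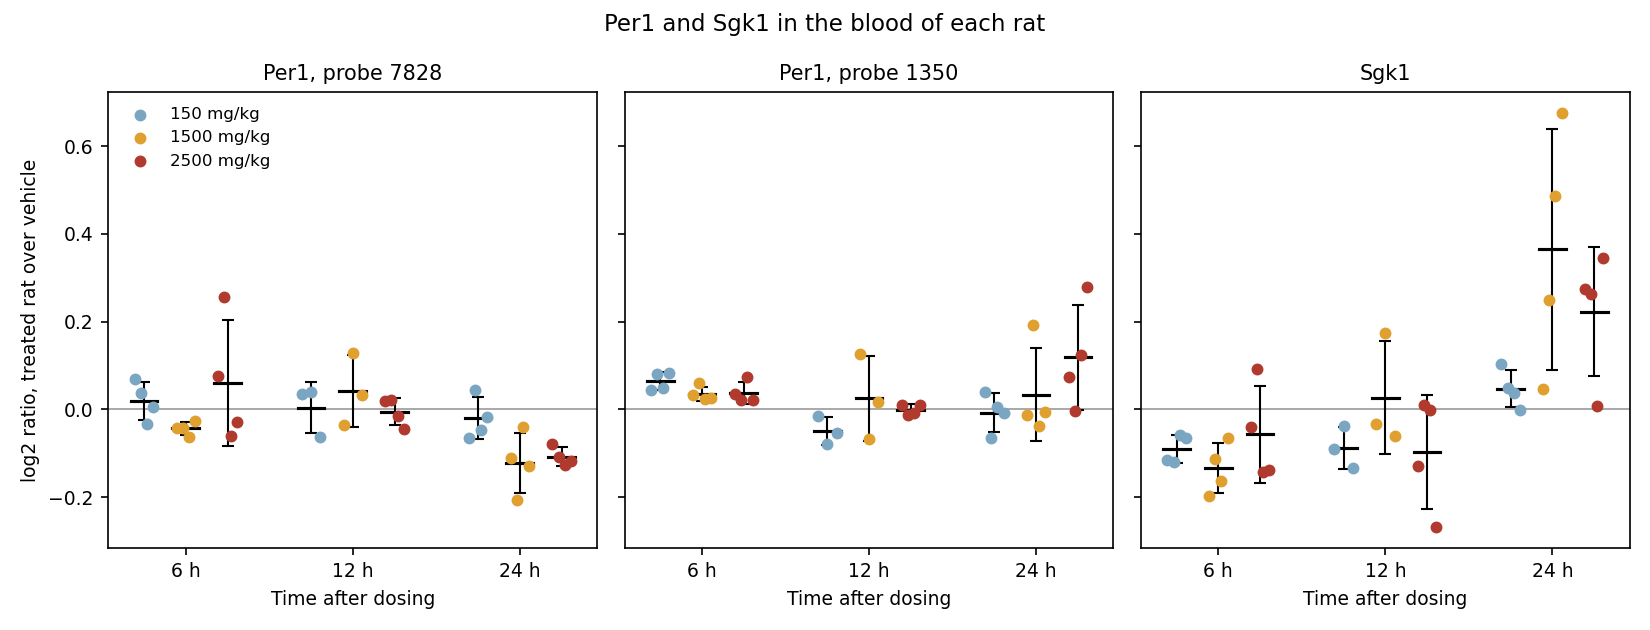
Log2 ratio of treated rat over vehicle (vertical axis) by time and dose (horizontal axis, doses from low to high within a time) for the 2 probes of Per1 and the probe of Sgk1. Points are rats, bars the mean and whiskers the SD over rats. Sgk1 reached a mean of 0.36 after 1500 mg/kg at 24 h, and the means of Per1 stayed between -0.12 and 0.12.

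The 6 genes differed in how they varied over rats. Over the 34 rats Anxa1 and Cebpd had r = 0.83, Sgk1 had r = 0.68 with Anxa1 and 0.61 with Cebpd, and Fkbp5 (mean of its probes) had r = -0.04 with Anxa1 and 0.11 with Cebpd. With the mean of each time removed, Fkbp5 had r = 0.40 with Anxa1 and 0.48 with Cebpd. Tsc22d3 by probe 6684 had r = -0.01 with Anxa1 and 0.44 with probe 18781 of Fkbp5. Rats of a time share their control, and these values are descriptions.

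The genes most like each of the 6 over the 34 rats were searched among 8013 genes that had a value other than 0 or the limit on every array. Each gene entered as the mean of its probes, although the probes did not read alike for Tsc22d3 (r = -0.16) and Per1 (r = -0.42). Those of Fkbp5 were only weakly alike, with r between 0.199 and 0.275. The mean of Tsc22d3 includes probe 3186. Nearest to Anxa1 were Tf (transferrin, r = 0.94), S100a9 (a subunit of calprotectin, 0.94) and Ifitm1 (an interferon-induced membrane protein, 0.94). Nearest to Cebpd were Tspo (a mitochondrial outer membrane protein, 0.96), Cfd (complement factor D, 0.93) and Tlr2 (a receptor for bacterial lipoproteins, 0.93). All 6 were above 0.91 with the time means removed, and S100a9 is also in the neutrophil list and Tlr2 in the monocyte list. Tsc22d3 was most like Sf3b5 (a splicing factor subunit, 0.81), Rpl4 (a ribosomal protein, 0.78) and Crlf3 (0.77).

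Fkbp5 was most like Sat1, which acetylates polyamines for breakdown (r = 0.86), Ddit3, a transcription factor of the integrated stress response (0.75), and Gna15, a G protein subunit of blood cells (0.73). Per1, by the mean of its discordant probes, was most like Pnrc1 (a nuclear receptor coactivator, 0.78), Usp7 (a deubiquitinase, 0.71) and Tm9sf2 (0.71). Sgk1 was most like Gpnmb (a membrane glycoprotein, 0.85), Prr13 (0.84) and C3 (the central complement component, 0.83). For Fkbp5 r with Sat1 was 0.85 with the time means removed, and for Sgk1 r with C3 was 0.65.

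A list of 48 other genes known to be induced by glucocorticoids was set beside the 6, of which 40 were measured. In the 2500 mg/kg rats killed at 24 h, 8 of the 40 rose and 4 fell against vehicle (limma, Benjamini-Hochberg adjusted p under 0.05 over 9653 genes). Over all genes, 10.9% passed as higher and 15.6% as lower. The median log2 ratio of the list was 0.00, as was that of all genes. Il1r2, the decoy receptor for interleukin-1, led it with 1.97 ± 0.49 (n = 4 rats, 3.91-fold, limma adjusted p = 1.62e-07). Gadd45a, a growth arrest gene, rose by 1.20 ± 0.46 (2.29-fold). Il10, an anti-inflammatory cytokine, rose by 0.20 ± 0.11, Alox5ap, the partner of 5-lipoxygenase, by 0.19 ± 0.12 and Mt2A, a metallothionein, by 0.35 ± 0.20. Glul, glutamine synthetase, stood at -0.27 ± 0.05 (limma adjusted p = 3.62e-07). Without the deviating array of rat 3631, Glul had a limma adjusted p of 0.182, and Pck1, Map3k6 and Orm1 no longer passed either (limma adjusted p between 0.0657 and 0.116). With standard errors widened for the spread of the control, 7 of the 40 passed.

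After 1500 mg/kg at 24 h, 6 of the 40 rose and 2 fell, where 2.34% of all genes passed as higher and 5.74% as lower. Il1r2 rose by 2.04 ± 0.78 (n = 4 rats, limma adjusted p = 1.26e-07), Mt2A by 0.39 ± 0.29, Zfp36, which destabilises cytokine transcripts, by 0.37 ± 0.21 and Alox5ap by 0.23 ± 0.13. Glul stood at -0.21 ± 0.10 and Arrdc2, an arrestin-domain protein, at -0.47 ± 0.22. After 150 mg/kg at 24 h, 0 of the 40 passed by limma, also 0 at an unadjusted p under 0.05, where 0% of all genes passed.

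**Figure D5:**
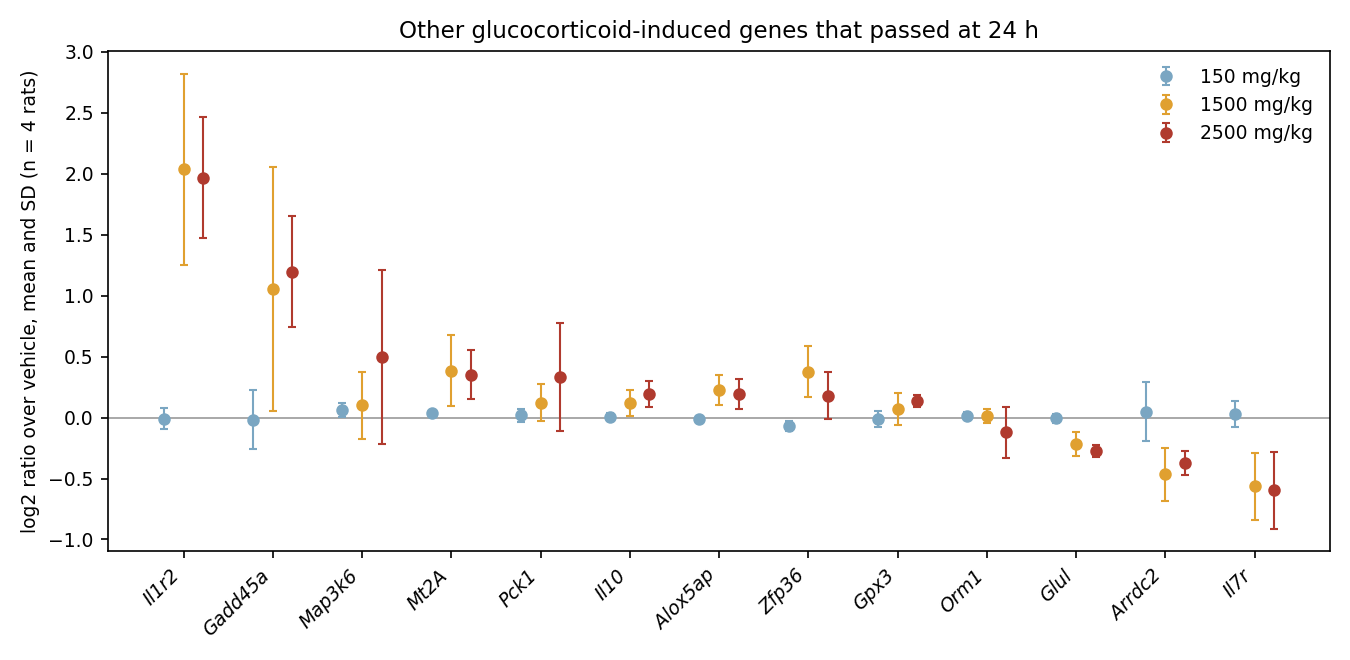
Mean log2 ratio over vehicle with its SD (vertical axis, n = 4 rats) at 24 h for the 13 genes of the wider glucocorticoid-induced list that passed after 1500 or 2500 mg/kg, ordered by the mean after 2500 mg/kg (horizontal axis), with doses from low to high within a gene. Il1r2 stood at 2.04 for 1500 mg/kg and 1.97 for 2500 mg/kg, and the means after 150 mg/kg lay between -0.07 and 0.06.

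Between doses at 24 h the control plays no part. Set against 150 mg/kg, 4 of the 40 rose and 2 fell after 2500 mg/kg, where 2.56% of all genes passed as higher and 5.09% as lower. Il1r2 was higher by 1.98 (standard error 0.29, limma adjusted p = 8.95e-05), Gadd45a by 1.21 and Alox5ap by 0.20, and Arrdc2 was lower at -0.42. Il10 (0.19) and Glul (-0.27) passed as well and did not without the deviating array of rat 3631 (limma adjusted p = 0.108 and 0.488). For 1500 against 150 mg/kg, 3 rose (Il1r2, Alox5ap and Zfp36) and 2 fell (Glul and Arrdc2), where 0.632% passed as higher and 1.51% as lower. Glul did not pass there without that array either (limma adjusted p = 0.277), and without rat 3619 there were 3 calls in place of 5. The calls of Gadd45a and of Zfp36 were each lost without any 1 of 6 rats of the groups compared.

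At 6 h the same list had fewer calls that rose. After 1500 mg/kg 4 of 40 rose and 4 fell, where 3.48% of all genes passed as higher and 9.24% as lower. Il1r2 rose by 1.55 ± 0.18 (n = 4 rats, limma adjusted p = 1.93e-05), Pdk4, a kinase that shuts pyruvate oxidation, by 0.19 ± 0.01, and Socs3, which limits cytokine signals, stood at -0.14 ± 0.03. Klf9, a direct receptor target that represses transcription, stood at -1.10 ± 0.26, Il7r, the receptor for interleukin-7, at -0.70 ± 0.20 and Nfkbia, the inhibitor of NF-kappaB, at -0.57 ± 0.09. With standard errors widened for a control pool of 4 animals, 2 of the 40 passed. A control of 1 rat, as the labels name it, would widen them more. The count of 8 was 3 without rat 3591 and 4 without rat 3592 or rat 3594. In the same rats 8 of 17 T cell markers, Il7r among them, and 4 of 6 B cell markers passed as lower, and 4 of 12 neutrophil markers as higher and 1 as lower, and their part in these changes was not tested.

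After 2500 mg/kg at 6 h, 2 of the 40 rose (Il1r2 by 1.03 ± 0.58 and Gadd45a by 0.82 ± 0.78) and 3 fell (Socs3, at -0.16 ± 0.03, Rgs2, which limits G protein signals, at -0.70 ± 0.36, and Nfkbia at -0.53 ± 0.53). Over all genes 2.54% passed as higher and 5.18% as lower. With the widened standard errors 1 of the 40 passed, and 5 of 17 T cell and 4 of 6 B cell markers passed as lower. Without rat 3597 the count of 5 was 3, and without rat 3598 it was 2. The Gadd45a call (limma adjusted p = 0.0481) was also lost without any 1 rat of the 150 mg/kg group. After 150 mg/kg Pdk4 rose by 0.29 and Socs3 fell by 0.11 (0 of the 40 with widened standard errors), where 2% of all genes passed in either direction. Leaving out rat 3587, 3588 or 3589 ended the Socs3 call (limma adjusted p between 0.0806 and 0.095), and leaving out rat 3590 ended both. Between doses at 6 h, Il1r2 was the 1 gene of the 40 that passed for 1500 against 150 mg/kg, higher by 1.71 (0.0414% of all genes passed), and 0 passed for 2500 against 150 mg/kg by limma (5 at an unadjusted p under 0.05, and 0.145% of all genes). The Il1r2 call was lost without rat 3587, 3588, 3589, 3591, 3592 or 3593. Without rat 3624 the comparison of 2500 with 150 mg/kg had 1 call in place of 0.

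At 12 h after 1500 mg/kg 3 of 40 rose and 1 fell, where 1.48% of all genes passed as higher and 3.36% as lower. Il1r2 rose by 0.98 ± 0.44 (n = 3 rats), Gadd45a by 1.07 ± 0.21 and Thbd, thrombomodulin, by 0.54 ± 0.16, and Socs3 stood at -0.13 ± 0.03. With standard errors widened for a control pool of 4 animals, 0 of the 40 passed. In these rats 3 of 12 neutrophil markers passed as higher, and 6 of 17 T cell and 5 of 7 platelet markers as lower, and their part was not tested. The count of 4 was 1 without rat 4133 of that group and 7 without rat 3631. After 2500 mg/kg 0 of the 40 passed by limma (7 at an unadjusted p under 0.05), where 1.39% of all genes did. Without rat 4137 there was 1 call. After 150 mg/kg Socs3 alone of the 40 fell, at -0.12, where 1.89% of all genes passed, and the count of 1 was 0 without rat 4127, 4128 or 4130 and 2 without rat 3631. For 1500 against 150 mg/kg 0 of the 40 passed by limma (7 at an unadjusted p under 0.05), and for 2500 against 150 mg/kg 0 (1 at an unadjusted p under 0.05), where 0% of all genes passed in either.

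Genes that glucocorticoids are known to repress are the first of several lists set beside all genes at 24 h in the 2500 mg/kg rats, where 10.9% of all genes passed as higher and 15.6% as lower. Of 28 measured inflammatory genes 4 passed as higher and 2 as lower, with a median log2 ratio of 0.04 against 0.00 for all genes. Ccl2, which attracts monocytes, rose by 1.86 ± 0.71, Cxcl2, which attracts neutrophils, by 0.67 ± 0.62, Ptgs2, the inducible cyclooxygenase, by 0.15 ± 0.14, and Il12b, a subunit of interleukin-12, by 0.58 ± 1.01. Pla2g2a, a secreted phospholipase, stood at -1.78 ± 0.44 and Ccl5, a T cell chemokine, at -0.55 ± 0.28. Without the deviating array of rat 3631, Ptgs2, Il12b and Ccl5 did not pass (limma adjusted p between 0.367 and 0.564).

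Of the 19 measured genes of the receptor's machinery, 2 passed as higher and 5 as lower in the same rats. Nr3c1, the glucocorticoid receptor, named here after its values were seen, stood at -0.26 ± 0.19 and did not pass (limma adjusted p = 0.184). Nr3c2, the mineralocorticoid receptor, rose by 0.26 ± 0.31, and Fkbp4, which competes with Fkbp5 on Hsp90, by 0.13 ± 0.16. Hsp90ab1, a cytosolic Hsp90, stood at -0.48 ± 0.07, Hspa8, a constitutive Hsp70, at -0.58 ± 0.23, Ppp5c, a phosphatase bound to the receptor complex, at -0.31 ± 0.18, and Dnajb1, an Hsp40 co-chaperone, at -0.23 ± 0.19. Fkbp4 and Hsp90ab1 did not pass without the deviating array (limma adjusted p = 0.629 and 0.0574). At 6 h after 1500 mg/kg 5 of the 19 passed as lower and 0 as higher, where 9.24% of all genes passed as lower and 3.48% as higher, with the Hsp70 relatives Hspa8 at -1.09 ± 0.21 and Hspa4 at -1.04 ± 0.21, the coactivator Ncoa2 at -0.81 ± 0.10, Ppp5c at -0.58 ± 0.10 and Ppid, a cyclophilin, at -0.40 ± 0.06.

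Relatives of the 6 genes did not all go with them. In the annexin list, which also held S100a10 and S100a11, 1 of 10 passed as higher and 2 as lower in the 2500 mg/kg rats at 24 h, where 10.9% of all genes passed as higher and 15.6% as lower. Anxa3, an annexin of neutrophils, rose by 1.16 ± 0.47 (limma adjusted p = 7.37e-05), while Anxa7 stood at -1.01 ± 0.35 and Anxa5, which binds phosphatidylserine, at -0.31 ± 0.23. Both Anxa3 and Anxa7 also passed against 150 mg/kg, at 1.16 and -1.03. Of the 5 measured C/EBP relatives, Cebpa, the factor of granulocyte differentiation, rose by 0.44 ± 0.62 and Ddit3 stood at -0.32 ± 0.34. Of the 3 other members of the TSC22 family, Tsc22d1 stood at -1.01 ± 0.16 (limma adjusted p = 4.82e-07) and Tsc22d4 at -0.33 ± 0.15, and Tsc22d2 did not pass (0.05 ± 0.03). Without the deviating array of rat 3631, Cebpa and Tsc22d4 did not pass (limma adjusted p = 0.552 and 0.153).

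Of 8 measured FK506-binding proteins, Fkbp4 rose by 0.13 ± 0.16 and Fkbp9, of the endoplasmic reticulum, stood at -0.23 ± 0.46 at 24 h in the 2500 mg/kg rats. Fkbp8, the largest in size of the list at -0.29 ± 0.31, did not pass (limma adjusted p = 0.101), and neither Fkbp4 nor Fkbp9 passed without the deviating array (limma adjusted p = 0.629 and 0.413). The clock list of 12 had 1 higher, Nfil3, a repressor of clock output, at 0.28 ± 0.10, and 1 lower, Csnk1d, the kinase that marks PER proteins, at -0.16 ± 0.26. Csnk1d did not pass without that array (limma adjusted p = 0.985). Per2, a partner of Per1, stood at 0.19 ± 0.72 and did not pass (limma adjusted p = 0.532). Nfil3 also rose at 24 h after 1500 mg/kg (0.32 ± 0.11) and at 6 h after both high doses (0.23 ± 0.04 at 1500 mg/kg, 0.22 ± 0.09 at 2500 mg/kg). Against 150 mg/kg at 24 h it was higher by 0.30 in the 1500 mg/kg rats and by 0.26 in the 2500 mg/kg rats, and both passed. Among 10 measured relatives and targets of Sgk1, 2 passed as higher and 4 as lower in those rats at 24 h, where 10.9% of all genes passed as higher and 15.6% as lower. Foxo3, a factor that the kinase keeps out of the nucleus, stood at -0.59 ± 0.13 and Foxo1 at -0.10 ± 0.02, Ndrg2 at -0.14 ± 0.17 and Nedd4l, a ubiquitin ligase, at -0.09 ± 0.08. Pdpk1, the kinase that activates it, rose by 0.16 ± 0.04 and Scnn1b, a sodium channel subunit, by 0.23 ± 0.21. The last of these did not pass without the deviating array (limma adjusted p = 0.133).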

How the data were processed

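The values are log10 ratios of the 2 dyes, deposited by the authors for 22075 probes on 68 arrays. Their background correction and normalization: not given in the sources used here. Values lie between -2 and 2, with array medians between -0.00352 and 0. Exact zeros (2.76% of values) and values at the limit (0.493%) stayed in. The number of arrays limits the precision. Multiplying by 3.32 gave log2 values, whose sign was set by the labelled dyes to treated over vehicle. Both arrays of a rat were averaged into 1 replicate. The annotation gives 1 gene for 12750 probes, several for 5 and none for 9320, and 12720 were named through Entrez identifiers in a RefSeq gene table (GRCr8, names alone). A gene is the mean of its probes.

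Tests used limma 3.58.1 in R 4.3.3 (lmFit, eBayes) with 9 group means over all 34 rats (25 residual degrees of freedom, prior 1.73), each group against 0 and each high dose against 150 mg/kg of its time. Calls had a Benjamini-Hochberg adjusted p under 0.05 over 9653 genes. Nothing says that rats of a group were treated apart, and p-values measure the spread between these rats. On simulated data for 2500 mg/kg at 24 h with 9653 genes, 97% of 100 genes changed by log2 1 and 100% of 100 changed by log2 2 were recovered. The simulated noise was normal, independent between genes and of the same SD in every group. It held no spread of the control and no deviating array, so recovery in the real data is not shown by it. The 6 genes, their lists and the blood cell markers were chosen with earlier results of these data known. Named from the lists were all calls where a comparison had 6 or fewer, otherwise the 6 with the smallest adjusted p, and for the lists of relatives the 2 largest means at 24 h after 2500 mg/kg. Likeness to a gene was Pearson's r over rats. Alternatives left out rats, arrays, zeros or probes, scaled the arrays, removed the dye profile, used 1 dye orientation, 1 time or single probes, a robust prior, or widened standard errors for pools of 4 and 6 control animals. Figures were drawn with matplotlib 3.10.9.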

Additional observations from a re-analysis of the deposited data

Results flagged for a closer look

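In 70 groups of 4 rats, taken over the 10 probes, the highest or lowest rat stood far from the others 3 times; chance flags about 1 in 20 such groups. Rat 3624 (1500 mg/kg, 24 h) was high for Tsc22d3 by probe 3186, at 0.3837, where its group's other rats lay between -0.03 and -0.01, and for Per1 by probe 1350, at 0.1927, where the others lay between -0.04 and -0.01. Rat 3591 (1500 mg/kg, 6 h) was low for Tsc22d3 by probe 6684, at -1.046, where the others lay between -0.84 and -0.81.

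For 8 pairs of groups every rat of one lay above vehicle and every rat of the other below it. Each of the 10 probes was compared between doses at each time and between times at each dose. Such pairs were not counted over all probes, so whether 8 is many is not shown. The difference was not tested for the pairs of times, and no test is given for Fkbp5 by its single probe. In the fit over all genes none of these dose differences passed for Anxa1 and Cebpd. There 0.0414% of all genes passed for 1500 against 150 mg/kg at 6 h, and 0% for either high dose at 12 h. Nothing is read from this, since these genes were chosen with their values known. Anxa1 stood at 0.2482 after 1500 mg/kg at 6 h, against -0.21 after 150 mg/kg. At 12 h it stood at 1.011 after 1500 mg/kg and at 0.5546 after 2500 mg/kg, against -0.14 after 150 mg/kg. Cebpd stood at 0.3148 after 1500 mg/kg at 6 h, against -0.69 after 150 mg/kg, and at 1.057 at 12 h, against -0.69. Fkbp5 by probe 18781 stood at 0.2996 after 1500 mg/kg at 12 h, against -0.36 after 150 mg/kg. Per1 by probe 1350 stood at -0.04873 at 12 h after 150 mg/kg, against 0.06 at 6 h, and Sgk1 at 0.3649 at 24 h after 1500 mg/kg, against -0.13 at 6 h.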

How the results depend on the processing

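The number of calls in the wider glucocorticoid-induced list was refitted under each alternative. Against vehicle it was 2, 8 and 5 at 6 h (150, 1500 and 2500 mg/kg), 1, 4 and 0 at 12 h, and 0, 8 and 12 at 24 h. Fits with the rats of 1 time gave 4 calls (6 h, 150 mg/kg), 8 (6 h, 2500 mg/kg), 0 and 1 (12 h, 150 and 1500 mg/kg) and 6 (24 h, 2500 mg/kg). Centred and scaled arrays gave 15 and 10 (6 h, 1500 and 2500 mg/kg) and 3 and 2 (12 h, 150 and 1500 mg/kg). Arrays with the treated rat in Cy5 alone gave 8 (6 h, 150 mg/kg), 8 and 10 (12 h, 1500 and 2500 mg/kg) and 8 (24 h, 150 mg/kg). Those with it in Cy3 alone gave 21 and 11 (6 h, 150 and 2500 mg/kg), 7, 18 and 16 (12 h, low to high) and 15 and 26 (24 h, 150 and 1500 mg/kg). Standard errors widened for the control gave 0, 2 and 1 (6 h, low to high), 0 and 0 (12 h, 150 and 1500 mg/kg) and 7 (24 h, 2500 mg/kg). Leaving out the Cy5 array of rat 3631, chosen after seeing the data, gave 0 and 7 (12 h, 150 and 1500 mg/kg). Between doses, where there were 1 and 0 calls at 6 h and 5 and 6 at 24 h (1500 and 2500 against 150 mg/kg), Cy3 alone gave 3 and 3 at 6 h. For 1500 against 150 mg/kg at 24 h the rats of that time gave 1, and scaling, Cy5 alone and Cy3 alone gave 2 each. For 2500 against 150 mg/kg at 24 h the rats of that time gave 1 and Cy5 alone 1. The cause was not tested. Removing the dye profile, single probes, a robust prior, leaving out unreliable probes and leaving out zeros and limit values kept every count within 1.5 times. With 1 rat left out the counts against vehicle ranged over 0 to 3, 3 to 9 and 2 to 7 at 6 h, 0 to 2, 1 to 7 and 0 to 1 at 12 h, and 0 to 0, 6 to 9 and 11 to 16 at 24 h (low to high dose). Between doses they ranged over 0 to 1 and 0 to 1 at 6 h, 0 to 0 at 12 h, and 3 to 7 and 4 to 9 at 24 h (1500 and 2500 mg/kg). With 1 rat left out, a mean over 3 or 4 rats cannot move by as much as their SD. The 204 such cases for the 6 genes, all within it, therefore show nothing about stability. With Cy5 arrays alone 28 values of the 6 genes moved by more than the SD over rats. Cy3 arrays alone gave the same 28, as they must, since the main value lies midway between both orientations. With single probes 33 moved by more than that SD and 55 did not. Tsc22d3 turned to 0.0044 (1500 mg/kg, 6 h) and 0.0893 (2500 mg/kg, 24 h) when probe 3186 was used alone. No paired analysis was possible because rat numbers are not shared between groups. Ratios without signals set no limit for weak probes.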
